A study of Mus musculus with 4 samples.

Results

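Saa3, Lcn2, Ptx3, Serpina3n, Serping1, C3, C4b, Cp, Steap4 and Osmr are genes of the acute-phase and complement response that astrocytes are known to express when they become reactive. They were taken by name, 10 of the 53379 genes in the count table, and each of the 10 passed the filter on low counts. RNA was sequenced from cortical astrocyte cultures of C57BL/6 mice, 2 wild-type (WT) samples and 2 Npas3-/- samples, at day 14 in vitro. The cells of both genotypes came from papain-dissociated cortex of newborn pups, were grown with 10% fetal bovine serum and shaken daily for 7 days to remove neurons and other cells, and were then replated. No agent that would induce reactivity is named for either genotype. The labels give neither the design of the Npas3 allele nor the animals or cultures behind each sample. A p-value here thus weighs a difference against the spread of these 4 samples, and that spread may be technical.

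The acute-phase response is the change in secreted proteins that follows injury or infection. Cytokines such as IL-6, oncostatin M and IL-1 drive it, largely through the transcription factors STAT3, C/EBP and NF-kB. In liver it fills the plasma with opsonins, protease inhibitors and metal-binding proteins, and reactive astrocytes make many of the same proteins in the brain. Complement is the cascade of plasma proteins that tags targets for phagocytes, with C4 acting early, C3 at its centre and C1 inhibitor holding its first step in check. In the gene lists used for mouse astrocytes, Lcn2, Steap4, Serpina3n, Osmr and Cp count as pan-reactive, C3, C4b and Serping1 belong to the A1-type list, and Ptx3 to the A2-type list.

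Levels are given in CPM, a gene's counts scaled to a common library size, with TMM scaling, and genotypes were compared with the quasi-likelihood test of edgeR at a threshold of 0.05, after Benjamini-Hochberg adjustment over the 18838 genes tested. Total counts per sample lay between 82965565 and 86932708. Npas3, which encodes a bHLH-PAS transcription factor, stood at 57.8 and 93.4 CPM in WT replicates 1 and 2 and at 24.8 and 18.0 CPM in Npas3-/- replicates 1 and 2. Its log2 fold change, -1.82 (SE 0.33, adjusted p = 0.0181), is in the direction of the labels, but reads remain in both Npas3-/- samples. With a correction of each library for GC content and transcript length, that log2 fold change was -0.57 (adjusted p = 0.154). The correction matters here because 33.1% of tested genes passed the threshold without it and 8.79% with it; a real difference that tracks either property is removed with it, and it shifts the median log2 fold change of all tested genes from -0.07 to 0.09. The differences of the 10 genes below are therefore given both ways.

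The stretches upstream of 5 of the 10 genes are shown because these genes bracket what follows: Saa3 and Ptx3 passed the threshold both ways, and C3, Steap4 and Serpina3n differed most between the WT samples or hold the most motif matches. Each runs 5′ to 3′ on the gene's own strand from 250 bases before the RefSeq start to 20 bases from it (GRCm38.p6). Capitals mark matches on either strand to an NF-kB motif (GGGA and CC with any 4 bases between, or GGG, any 2 bases and TTTCC), a STAT motif (TTCNNNGAA) or a C/EBP motif (TTGCNNNAA or TTNNGNAAT).
Saa3, chr7:46715657-46715926, minus strand: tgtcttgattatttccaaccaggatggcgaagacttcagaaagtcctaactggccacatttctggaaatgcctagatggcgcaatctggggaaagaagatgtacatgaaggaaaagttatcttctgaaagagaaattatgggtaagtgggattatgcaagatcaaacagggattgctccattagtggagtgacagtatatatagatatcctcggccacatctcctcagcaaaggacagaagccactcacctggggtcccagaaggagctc
Ptx3, chr3:66219637-66219906, plus strand: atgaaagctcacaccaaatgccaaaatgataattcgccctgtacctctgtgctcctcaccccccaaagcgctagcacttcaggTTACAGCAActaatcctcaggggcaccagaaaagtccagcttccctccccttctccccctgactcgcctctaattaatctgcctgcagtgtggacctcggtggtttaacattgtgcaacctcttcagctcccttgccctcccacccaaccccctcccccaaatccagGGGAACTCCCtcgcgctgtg
C3, chr17:57228117-57228386, minus strand: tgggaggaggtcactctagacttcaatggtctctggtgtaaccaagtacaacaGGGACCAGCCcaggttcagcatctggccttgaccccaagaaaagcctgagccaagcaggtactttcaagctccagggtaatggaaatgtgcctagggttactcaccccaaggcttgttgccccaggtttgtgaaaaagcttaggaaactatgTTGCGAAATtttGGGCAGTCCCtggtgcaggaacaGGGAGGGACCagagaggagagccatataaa
Steap4, chr5:7960222-7960491, plus strand: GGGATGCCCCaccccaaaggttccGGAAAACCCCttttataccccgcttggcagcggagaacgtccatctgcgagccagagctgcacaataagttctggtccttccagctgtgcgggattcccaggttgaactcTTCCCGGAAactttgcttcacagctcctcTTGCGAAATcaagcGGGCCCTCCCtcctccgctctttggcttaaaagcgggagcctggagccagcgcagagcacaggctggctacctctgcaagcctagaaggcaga
Serpina3n, chr12:104406458-104406727, plus strand: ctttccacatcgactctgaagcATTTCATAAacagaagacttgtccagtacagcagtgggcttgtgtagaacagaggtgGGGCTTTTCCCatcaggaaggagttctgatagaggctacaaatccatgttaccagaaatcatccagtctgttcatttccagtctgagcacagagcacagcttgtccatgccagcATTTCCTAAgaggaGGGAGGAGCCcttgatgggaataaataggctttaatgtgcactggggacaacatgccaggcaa

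RefSeq windows of 300 bases, from 250 before to 50 after a start, were at hand for 8 of the 10 genes, and Serping1 and C4b had none. The NF-kB letters occurred in the windows of 6 of the 8 (C3, Cp, Osmr, Ptx3, Serpina3n and Steap4), against 21.3% of 32851 mouse windows. The C/EBP letters occurred in those of 6 of the 8 (C3, Cp, Ptx3, Saa3, Serpina3n and Steap4), against 19.15% of windows. The STAT letters were found in 1, Steap4, at position -116, against 8.30% of windows. The 8 genes had 9 windows, and by window the NF-kB letters occurred in 6, the C/EBP letters in 7 and the STAT letters in 1. In the Serpina3n stretch the first pair of NF-kB matches overlap, at -171 and -170, on opposite strands. The Saa3 match, a C/EBP one, lies at 36 from the start, beyond the printed stretch. With looser letters for NF-kB (GGG and CC with any 5 bases between), 50.8% of windows match and 7 of the 8 genes do. Looser C/EBP letters (TTNNNNAAT) occur in 36.25% of windows and in the same number of genes, 6, and a STAT motif with 1 more free base allowed occurs in 14.6% of windows and in 2 genes, Steap4 and Lcn2. These matches describe letters in a window and say nothing of binding.

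Across the 10 genes, 2 rose in Npas3-/- samples (Saa3 and Ptx3), 1 fell (Osmr) and 7 did not pass the threshold. The background in the same test was 11.6% of genes higher and 21.5% lower. With the correction, Saa3 and Ptx3 passed again, against 5.71% higher, and 0 of the 10 fell, against 3.08% lower. At an unadjusted p below 0.05, 4 of the 10 were then higher (Saa3, Ptx3, C4b and Cp) and 0 lower. As counted, 3 were higher at that p (Saa3, Ptx3 and C4b) and 2 lower (Cp and Osmr), so that Cp changed direction. Of the 18838 tested genes, 5774 had such a p-value in either direction with the correction, and 9024 as counted. The median log2 fold change of the 10 was 0.33 as counted and 0.33 with the correction. Both Npas3-/- samples lay above both WT samples for 3 of the 10 genes (35.7% of all tested genes), both lay below for 2 (40.1%), both lay between the WT samples for 2 (4.88%), and the genotypes overlapped otherwise for 3 (19.3%). In bulk RNA, fewer cells of a kind and less RNA per cell cannot be told apart.

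**Figure D1:**
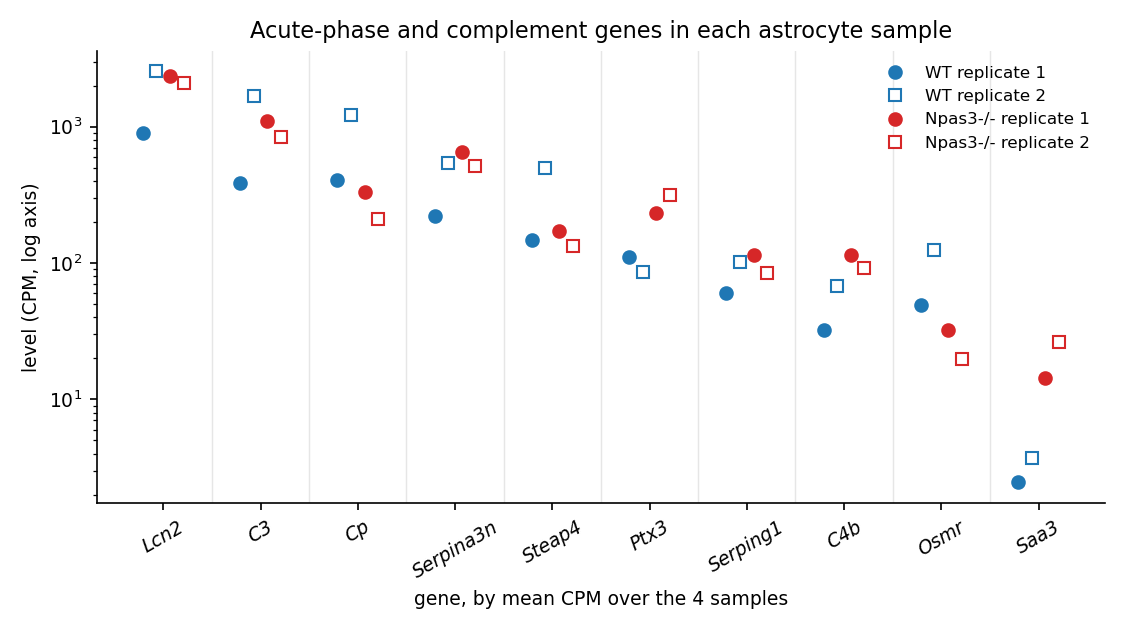
Level of each of the 10 genes (CPM, log axis) in each of the 4 samples, with genes ordered by mean level. Filled circles are replicate 1 and open squares replicate 2; blue is WT and red Npas3-/-. Saa3, Ptx3 and C4b have both red points above both blue ones, Cp and Osmr have both below, and for Lcn2 and C3 both red points lie between the blue ones.

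Saa3, serum amyloid A3, is an acute-phase apolipoprotein made largely outside the liver in mice and the lowest of the 10 genes by CPM. It was counted at 2.47 and 3.69 CPM in the WT samples and at 14.4 and 26.5 CPM in the Npas3-/- samples (219, 345, 1189 and 2043 counts). Both Npas3-/- samples were above both WT samples, with means of 20.4 ± 8.61 CPM (SD, n = 2) against 3.08 ± 0.862 CPM (SD, n = 2). The log2 fold change was 2.73 (SE 0.44, adjusted p = 0.0157), and with the correction 3.07 (SE 0.42, adjusted p = 0.0246). Saa3 lies at chr7:46711998-46715700 (mm10, minus strand) as 4 exon blocks and belongs to a cluster of related genes. Of the counts of Saa1, Saa2, Saa3 and Saa4 together, 97.5% to 100% were on Saa3. Saa1 had 13 counts in Npas3-/- replicate 1 and none in the other samples, and Saa2 had 17 counts in Npas3-/- replicate 2 and none in the others.

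Ptx3, long pentraxin 3, is a secreted pattern-recognition protein that binds complement C1q and microbes. Its level was 110 and 86.6 CPM in the WT samples and 234 and 313 CPM in the Npas3-/- samples, again with no overlap. The means were 98.3 ± 16.5 CPM and 274 ± 56.0 CPM (SD, n = 2 each). On the log2 scale Ptx3 rose by 1.48 (SE 0.25, adjusted p = 0.0167), and with the correction 1.32 (SE 0.21, adjusted p = 0.0280). Ptx3 lies at chr3:66219910-66225805 (plus strand) and was the single gene of the 10 with WT replicate 2 below WT replicate 1. Without Npas3-/- replicate 2 the log2 fold changes of Saa3 and Ptx3 were 2.23 (adjusted p = 0.0801) and 1.26 (adjusted p = 0.0918), in a fit in which no gene of the table passed (5728 genes had an unadjusted p below 0.05). With the correction, leaving out either Npas3-/- sample left no gene past the threshold (3683 and 4470 genes had an unadjusted p below 0.05), and leaving out WT replicate 2 left Saa3 past it and Ptx3 not (1.19, adjusted p = 0.0558).

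Lcn2, lipocalin 2, is a secreted protein that captures iron-loaded bacterial siderophores and is one of the most used marks of reactive astrocytes. It was counted at 905 and 2546 CPM in the WT samples and at 2365 and 2074 CPM in the Npas3-/- samples. Both Npas3-/- values fell between the WT values, and WT replicate 2 was the highest of the 4. The log2 fold change was 0.36 (SE 0.49, adjusted p = 0.593), and with the correction -0.40 (adjusted p = 0.668). Lcn2 lies at chr2:32384633-32388252 (minus strand). It took the largest part of the 10 genes' counts in every sample, from 37.1% in WT replicate 2 to 48.1% in Npas3-/- replicate 2.

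Serpina3n is a secreted serine protease inhibitor related to human antichymotrypsin. Its level was 221 and 539 CPM in the WT samples and 653 and 517 CPM in the Npas3-/- samples, and the genotypes overlapped. Its log2 fold change was 0.62 (SE 0.44, adjusted p = 0.312), and with the correction 0.28 (adjusted p = 0.717). Serpina3n lies at chr12:104406729-104414329 (plus strand), on the chromosome that carries Npas3 (chr12:53248677-54072175). The annotation holds 14 closely related Serpina3 genes, and 98.2% to 98.6% of their counts were on Serpina3n.

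C3, the central complement component, had the largest ratio between the WT samples among the 10 genes. It was counted at 383 and 1682 CPM in WT and at 1108 and 835 CPM in Npas3-/- samples, so that both Npas3-/- values lay between the WT values. The means, 1032 ± 918 CPM and 971 ± 193 CPM (SD, n = 2 each), differed by a fitted log2 fold change of -0.09 (SE 0.66, adjusted p = 0.930), and with the correction -0.02 (adjusted p = 0.989). C3 lies at chr17:57203970-57228136 (minus strand) as 42 exon blocks. The gap between the WT samples, 2.13 on the log2 scale, stands beside that SE of 0.66.

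C4b, the complement component that acts just before C3 in the classical and lectin pathways, was counted at 32.4 and 67.4 CPM in WT and at 114 and 91.9 CPM in Npas3-/- samples. Both Npas3-/- samples were above both WT samples. Its log2 fold change of 1.05 (SE 0.38) did not pass the threshold (adjusted p = 0.0821), and with the correction it was 0.99 (adjusted p = 0.136). DESeq2, which called 18.7% of genes higher and 25.7% lower, called C4b higher (1.06, adjusted p = 0.0274) and Cp lower (-1.57, adjusted p = 0.00768). C4b lies at chr17:34728380-34743882 (minus strand) beside its near-identical copy C4a, a pair in which C4b held 96.8% to 98.5% of the counts. C4a stood at 1.05 and 1.80 CPM in WT and 1.73 and 3.04 CPM in Npas3-/- samples.

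Serping1 encodes C1 inhibitor, which blocks the proteases C1r and C1s. Its level was 60.2 and 102 CPM in WT and 114 and 84.8 CPM in Npas3-/- samples, overlapping between genotypes. Serping1 had a genotype difference of 0.29 on the log2 scale (SE 0.32, adjusted p = 0.505) as counted and of -0.16 (adjusted p = 0.788) with the correction. Serping1 lies at chr2:84765387-84775444 (minus strand). C1ra, one of the genes for its target proteases, stood at 53.4 and 88.9 CPM in WT and 108 and 82.3 CPM in Npas3-/- samples (log2 fold change 0.42, adjusted p = 0.327). C1s1, another of these genes, stood at 43.3 and 107 CPM in WT and 59.8 and 50.9 CPM in Npas3-/- samples (log2 fold change -0.44, adjusted p = 0.456).

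Cp, ceruloplasmin, is a copper-carrying ferroxidase that helps iron leave the cell, and astrocytes carry a membrane-bound form of it. It was counted at 408 and 1219 CPM in WT and at 332 and 212 CPM in Npas3-/- samples. Both Npas3-/- samples were below both WT samples, and WT replicate 2 stood far above the other 3. The log2 fold change of -1.58 (SE 0.55) did not pass the threshold (adjusted p = 0.0753), and with the correction its sign turned, to 0.71 (adjusted p = 0.153). Cp lies at chr3:19957054-20009145 (plus strand) and shares 108 exonic bases with Hps3 on the other strand, from which its reads cannot be told apart where the counting did not use strand.

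Steap4 encodes a metalloreductase that reduces iron and copper for uptake. Its level was 147 and 501 CPM in WT and 172 and 134 CPM in Npas3-/- samples, so that WT replicate 2 stood apart and the other 3 samples lay together. For Steap4 the log2 fold change was -1.08 (SE 0.57, adjusted p = 0.187), and with the correction 0.38 (adjusted p = 0.611). Steap4 lies at chr5:7960457-7982213 (plus strand). Of its relatives, Steap1 stood between 3.95 and 7.86 CPM and Steap3 between 23.1 and 34.7 CPM, neither past the threshold. Steap2 fell as counted (log2 fold change -1.74, adjusted p = 0.0284) and rose with the correction (1.16, adjusted p = 0.0498).

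Osmr encodes the receptor chain that pairs with gp130 to bind oncostatin M. It was counted at 49.3 and 124 CPM in WT and at 32.1 and 19.7 CPM in Npas3-/- samples, with no overlap. The log2 fold change of -1.75 (SE 0.50) passed the threshold narrowly (adjusted p = 0.0470), and with the correction it was -0.24 (SE 0.36, adjusted p = 0.698). It did not pass without WT replicate 2 (-0.95, adjusted p = 0.132), without Npas3-/- replicate 1 (-2.14, adjusted p = 0.0742) or without Npas3-/- replicate 2 (-1.43, adjusted p = 0.193). Osmr lies at chr15:6813577-6874969 (minus strand). Osmr, Steap4 and Cp, which had the negative log2 fold changes beside that of C3, are also the 3 genes of the 10 with the lowest GC content (46.0%, 44.7% and 41.7% against 48.4% to 55.3%).

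**Figure D2:**
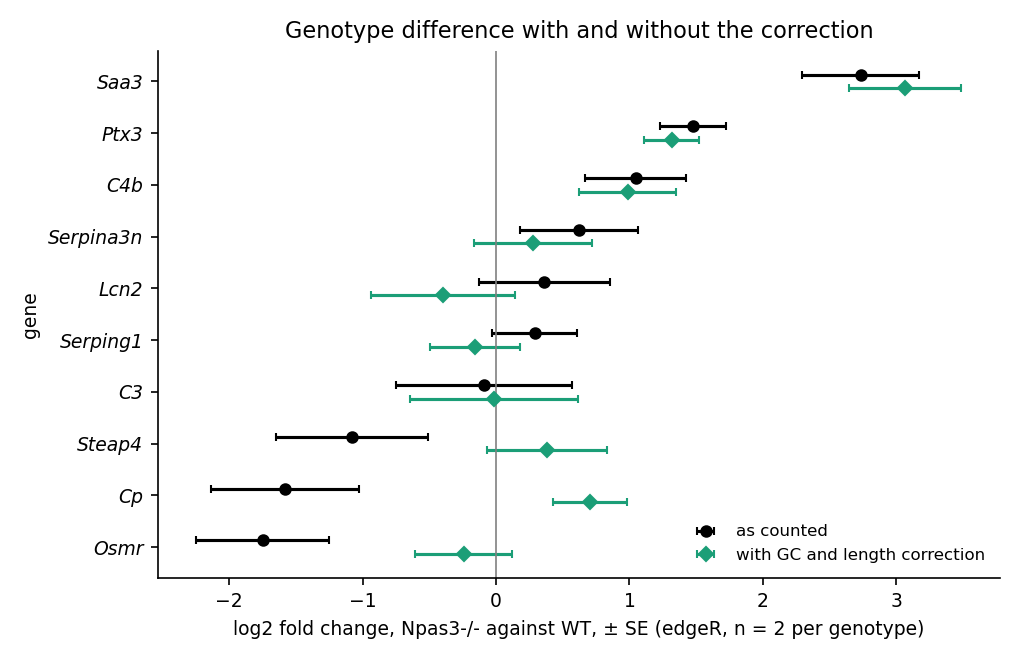
Log2 fold change of each gene, Npas3-/- against WT, with its SE (bars; edgeR, n = 2 per genotype), as counted (black circles) and with the GC and length correction (green diamonds). Saa3, Ptx3 and C4b stay near their values, whereas Cp moves from -1.58 to 0.71, Steap4 from -1.08 to 0.38 and Osmr from -1.75 to -0.24.

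A difference between the WT samples ran through most of these genes. WT replicate 2 was above WT replicate 1 for 9 of the 10 genes and at least 2-fold above for 7 (Lcn2, Serpina3n, C3, C4b, Cp, Steap4 and Osmr), against 50.2% and 12.9% of the 18479 genes with a ratio. The ratio was 4.39 for C3, 3.41 for Steap4, 2.98 for Cp and 2.81 for Lcn2. Osmr followed at 2.52, Serpina3n at 2.44 and C4b at 2.08. With the correction 6 of the 10 were still at least 2-fold higher in WT replicate 2 (8.51% of genes), C3 at a log2 ratio of 2.15 and Lcn2 at 1.70, while Cp dropped to 0.72. The 10 genes together took 0.248% of counts in WT replicate 1 (Wilson 95% interval 0.247% to 0.249%) and 0.751% in WT replicate 2 (0.749% to 0.752%). They took 0.490% in Npas3-/- replicate 1 and 0.386% in Npas3-/- replicate 2, so that both Npas3-/- samples lay between the WT samples. These intervals cover counting error alone.

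For the 10 genes the Npas3-/- samples lay closer together than the WT samples by the median absolute log2 ratio (0.41 against 1.31). That median was 0.34 between the Npas3-/- samples for the 17607 genes with a ratio, so the 10 genes were no closer there than genes in general. None of the 10 genes differed 2-fold between the Npas3-/- samples, against 14.1% of those 17607 genes. Replicate 2 was the higher one for Saa3 and Ptx3 (49.9% of genes) and the lower one for the other 8. For 6 of the 10 genes the WT samples differed from each other by more than the fitted genotype difference, against 23.8% of all genes. Saa3 and Ptx3 passed as counted whichever WT sample was kept, Serping1 passed with neither, and the calls of the other 7 depended on it. Without WT replicate 2, 6 of the 10 genes rose in Npas3-/- samples (2.47% of genes rose): Saa3, Ptx3, C4b (log2 fold change 1.65, adjusted p = 0.0209), Serpina3n (1.39, adjusted p = 0.0282), C3 (1.33, adjusted p = 0.0319) and Lcn2 (1.28, adjusted p = 0.0206). With the correction as well, 4 rose (2.3% of genes): Saa3, C3, C4b and Steap4. Without WT replicate 1, Cp (-2.18, adjusted p = 0.00736), Steap4 (-1.73, adjusted p = 0.00894) and Osmr (-2.28, adjusted p = 0.00874) fell, against 19.0% of genes lower, and Saa3 and Ptx3 rose, against 9.93% higher. With the correction as well, Saa3 and Ptx3 rose (7.56% of genes) and 0 of the 10 fell (2.94% of genes): Cp stood at 0.41 (adjusted p = 0.235), Steap4 at -0.16 (adjusted p = 0.616) and Osmr at -0.68 (adjusted p = 0.111). In these fits the lone WT sample is assumed to vary like the other genotype.

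**Figure D3:**
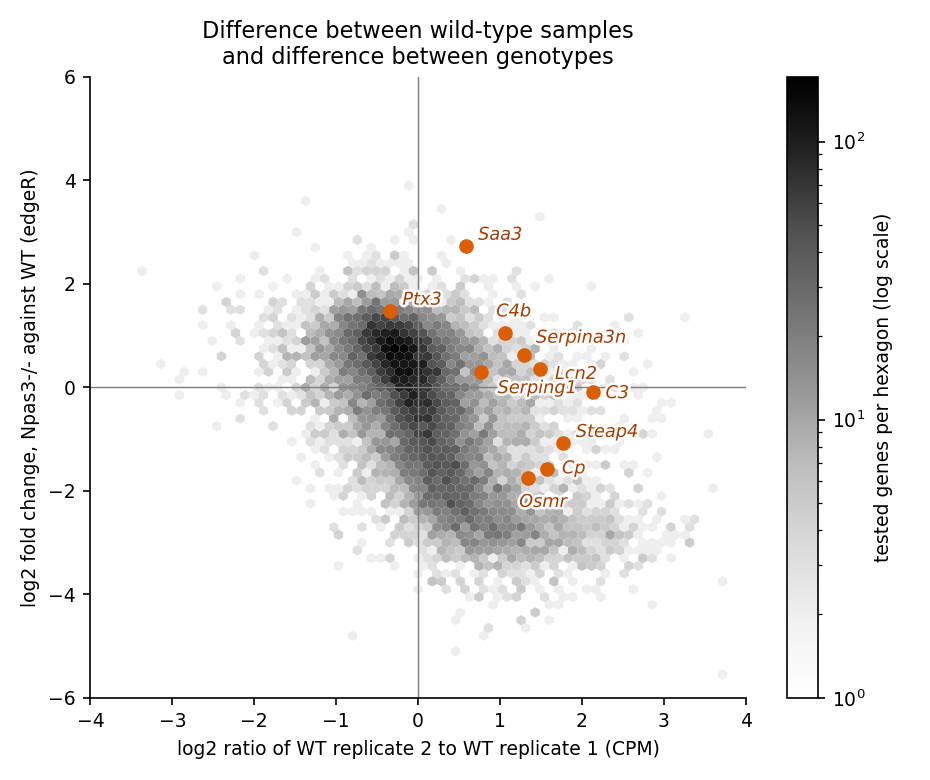
Log2 ratio of WT replicate 2 to WT replicate 1 (horizontal) against the log2 fold change, Npas3-/- against WT (vertical), for tested genes with a ratio; hexagons are shaded by gene number on a log scale and the 10 genes are orange. The axes share the WT samples, so the slope of the cloud is no result; 9 of the 10 genes lie right of 0 and 7 of them at a log2 ratio of 1 or more.

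Levels can be set against each other between genes per length, here as RPKM over the union of exons. Lcn2 was the highest, at a mean of 752 RPKM and a range of 345 to 971 RPKM. Serpina3n followed at 234 RPKM, C3 at 195, Steap4 at 75.6, Ptx3 at 69.3, Cp at 56.7 and Serping1 at 38.8. C4b stood at 13.4 RPKM, Osmr at 4.65 and Saa3 at 4.51. Neighbours in this order were separated in range over the 4 samples at 2 places, between Lcn2 and Serpina3n and between Serping1 and C4b. The other neighbours overlapped: Osmr was above Saa3 in both WT samples and below it in both Npas3-/- samples. With the length of 1 transcript per gene in place of the union, Cp stood 4th and Steap4 6th, and the other 8 kept their places. The mean levels of 3 genes then more than doubled, to 2156 RPKM for Lcn2, 119 for Cp and 10.3 for Osmr.

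**Figure D4:**
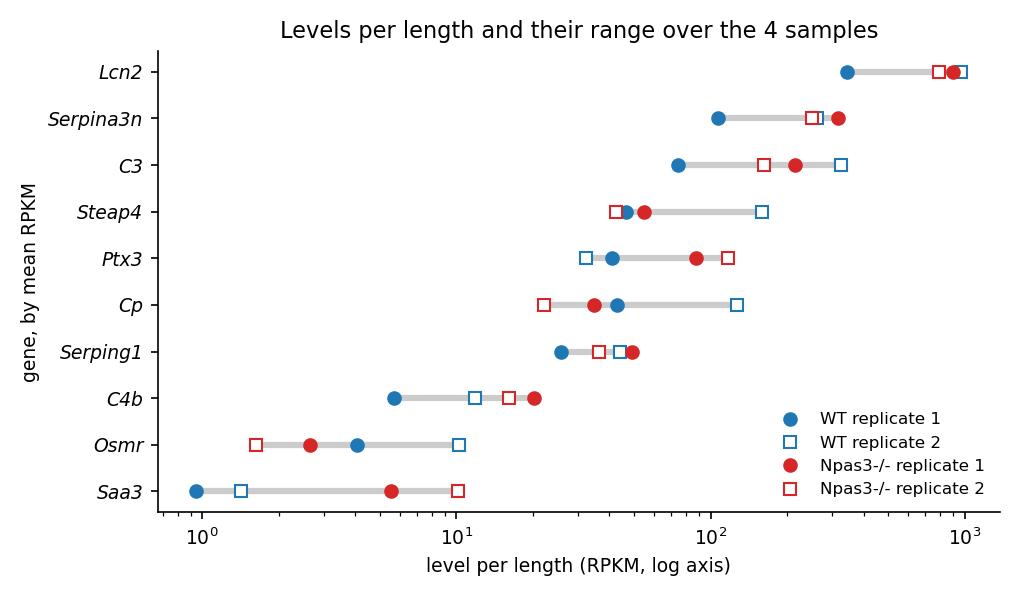
Level per length (RPKM over the union of exons, log axis) of each gene in the 4 samples, in order of the mean; the grey bar spans the range. Ranges separate at 2 places, below Lcn2 and below Serping1, and overlap between the other neighbours.

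The remaining genes of 5 pathway lists give the setting, beside 11.6% of all tested genes higher and 21.5% lower as counted. With the correction these shares were 5.71% and 3.08%. Without the 10 genes these lists hold 135 tested genes, of which 25 rose and 22 fell as counted, and 9 rose and 6 fell with the correction. Their median log2 fold change was 0.36 as counted and 0.21 with the correction. These lists, like the 10 genes, were drawn up with earlier results of these data known, and nothing is called particular to any of them.

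Of 28 other complement genes, 0 rose and 3 fell as counted; at an unadjusted p below 0.05, 3 were higher and 5 lower, and DESeq2 called 2 higher and 5 lower. With the correction 0 passed in edgeR, with an unadjusted p below 0.05 for 3 higher and 1 lower. Those that fell were Colec12, a scavenger collectin (log2 fold change -2.49, adjusted p = 0.0157), Masp1, a lectin-pathway protease (-2.18, adjusted p = 0.0246), and Cd55, a membrane regulator of the C3 convertases (-2.83, adjusted p = 0.0268). Clu, clusterin, the most abundant of them, stood at 759 and 788 CPM in WT and 1251 and 1218 CPM in Npas3-/- samples and did not pass (adjusted p = 0.0522). The receptors C3ar1 and C5ar1 were under 1 CPM in every sample. At least 2-fold differences with WT replicate 2 above WT replicate 1 were found in 7 of the 25 complement genes with a ratio, and the reverse in 4, with a median log2 ratio of 0.05.

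Of 21 other acute-phase genes, 3 rose and 2 fell as counted, and with the correction 1 passed, Mt2, which fell. Lbp, the lipopolysaccharide-binding protein, was counted at 45.7 and 77.1 CPM in WT and 163 and 150 CPM in Npas3-/- samples (log2 fold change 1.35, adjusted p = 0.0263; 0.98 and adjusted p = 0.0954 with the correction). Saa4, beside Saa3, had no count in either WT sample and 17 and 20 counts in the Npas3-/- samples (adjusted p = 0.0378, and 0.0652 with the correction). With each WT library set to a floor of 3 counts the ratio of means was 7.06. That ratio leaves out the counting error of the Npas3-/- samples and is no lower bound. Mt2, a metallothionein, fell both ways, by 1.01 as counted (adjusted p = 0.0227) and by 1.91 with the correction (adjusted p = 0.0292) on the log2 scale. A2m, the most abundant, stood at 631 and 839 CPM in WT and 585 and 442 CPM in Npas3-/- samples and did not pass (adjusted p = 0.174).

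The oncostatin M receptor belongs to the IL-6 family pathway, in which 11 of 32 other genes rose and 3 fell as counted, and 4 rose and 2 fell with the correction. Lifr, the receptor chain for LIF, fell as counted (-2.27, adjusted p = 0.0418) and not with the correction (-0.24, adjusted p = 0.726), much as Osmr did. Il6st, which encodes gp130, did not pass as counted (-0.32, adjusted p = 0.367) and rose with the correction (1.05, adjusted p = 0.0249). The kinase genes Jak1 (-2.03, adjusted p = 0.0155) and Jak2 (-2.89, adjusted p = 0.0145) fell as counted, and Jak1 also with the correction (-1.04, adjusted p = 0.0495). Stat3 stood at 296 and 355 CPM in WT and 432 and 373 CPM in Npas3-/- samples and did not pass (adjusted p = 0.305).

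Among downstream genes of that pathway, Cebpd, a C/EBP transcription factor of the acute phase, was counted at 316 and 354 CPM in WT and 645 and 953 CPM in Npas3-/- samples. It rose as counted (1.25, adjusted p = 0.0250) and with the correction (1.30, adjusted p = 0.0386). Cebpb (1.18, adjusted p = 0.0428) and Socs3, the feedback inhibitor of gp130 signalling (0.80, adjusted p = 0.0486), rose as counted, and neither passed with the correction. Of the ligands, Osm and Il6 were under 0.2 CPM in every sample, and Lif stood between 29.3 and 44.7 CPM and did not pass (adjusted p = 0.220). None of these 32 genes was at least 2-fold higher in WT replicate 2 than in WT replicate 1, against 12.9% of all genes with a ratio. The reverse held for 1 of the 32.

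In the NF-kB and Toll-IL-1 list, 7 of 30 genes rose and 6 fell as counted, and 1 rose and 1 fell with the correction. Chuk, an IkB kinase, fell both ways (-3.59, adjusted p = 0.0130; -1.55, adjusted p = 0.0255 with the correction). Il1rap, the shared chain of the IL-1 receptor (-2.42, adjusted p = 0.0130), Traf6 (-2.04, adjusted p = 0.0156) and Nfkbiz (-1.34, adjusted p = 0.0286) fell as counted. None of them passed with the correction (adjusted p = 0.292, 0.218 and 0.0741). Tnfrsf1a, the TNF receptor, rose as counted (0.75, adjusted p = 0.0394) and did not pass with the correction (0.08, adjusted p = 0.832). Nfkbia, the feedback inhibitor IkB-alpha, stood at 102 and 141 CPM in WT and 149 and 165 CPM in Npas3-/- samples and did not pass (adjusted p = 0.258).

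Of 27 iron and copper genes beside Lcn2, Cp and Steap4, 4 rose and 9 fell as counted, and 4 rose and 3 fell with the correction. Trf, transferrin, rose both ways (1.72, adjusted p = 0.0135; 1.45, adjusted p = 0.0292 with the correction), and Tfrc, its receptor, fell both ways (-3.54, adjusted p = 0.0134; -1.04, adjusted p = 0.0326). Fth1, ferritin heavy chain, rose as counted from 3537 and 5560 CPM in WT to 9665 and 11256 CPM in Npas3-/- samples (adjusted p = 0.0384). With the correction it did not pass (0.55, adjusted p = 0.267). Heph, hephaestin, a ferroxidase related to Cp, fell as counted (-1.99, adjusted p = 0.0130) and not with the correction (-0.58, adjusted p = 0.135). Slc22a17, a receptor for lipocalin 2, stood at 88.6 and 85.7 CPM in WT and 116 and 231 CPM in Npas3-/- samples and did not pass (adjusted p = 0.0762), and Slc40a1, the iron exporter ferroportin, was under 2 CPM throughout.

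**Figure D5:**
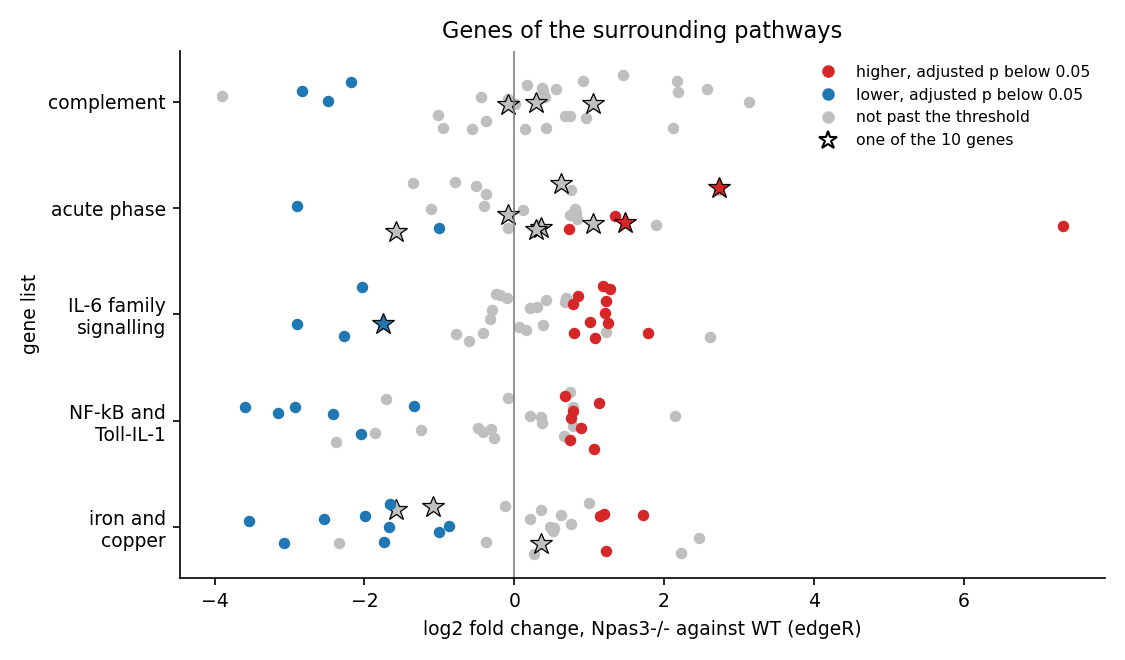
Log2 fold change, Npas3-/- against WT, of the tested genes of 5 gene lists (edgeR, as counted). Red and blue points passed the threshold of 0.05, grey points did not, stars are the 10 genes, and a gene in more than 1 list appears in each; the point at the far right is Saa4, whose fitted value depends on the prior count because both WT samples are at 0.

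The 10 genes were also set beside the rest of the astrocyte reactivity lists. Among all tested genes, 11.6% rose and 21.5% fell as counted, and 5.71% rose and 3.08% fell with the correction. Of 8 other pan-reactive genes 4 rose and 1 fell as counted, and 1 rose with the correction: Gfap, the intermediate filament of reactive astrocytes, at 613 and 656 CPM in WT and 1871 and 1900 CPM in Npas3-/- samples (1.57, adjusted p = 0.0130; 1.05, adjusted p = 0.0314 with the correction). Of 10 other A1-type genes 5 rose and 1 fell as counted, and 5 rose with the correction, 4 of them both ways. H2-T23 and H2-D1, class I antigen genes that rose both ways, had log2 fold changes of 2.01 (adjusted p = 0.0130) and 1.54 (adjusted p = 0.0158). Of 11 other A2-type genes 2 rose and 3 fell as counted, and 1 rose and 1 fell with the correction. Tm4sf1, a membrane protein, rose both ways (2.12 as counted, adjusted p = 0.0130). Ptgs2 (-3.03, adjusted p = 0.0137) and Cd109 (-1.50, adjusted p = 0.0191) fell as counted and did not pass with the correction.

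Markers of other cell types that make the same proteins were counted in the same samples. Of 14 microglia and macrophage markers listed, 13 were used and 1 is not reported here. The 13 used summed to 4.67 and 2.65 CPM in WT and 8.97 and 8.97 CPM in Npas3-/- samples. C1qa stood at 0.36 and 0 CPM in WT and 1.98 and 1.21 CPM in Npas3-/- samples, and Ptprc had counts in 1 sample alone. These sums were higher in the Npas3-/- samples, as Saa3 and Ptx3 were, and their part in those results was not tested. Of the 12 tested among these 13 markers, 0 rose as counted by edgeR or DESeq2 (2 had an unadjusted p below 0.05 in edgeR and 3 in DESeq2). With the correction 0 of these 12 rose, also at an unadjusted p below 0.05. Granulocyte markers summed to at most 0.591 CPM, with Ngp, S100a8, S100a9 and Elane at 0. Fibroblast and meningeal markers summed to 384 to 481 CPM with overlapping genotypes, choroid plexus markers to at most 8.39 CPM and endothelial ones to at most 18.3 CPM. The 10 astrocyte markers summed to 3142 and 3959 CPM in WT and 4956 and 4971 CPM in Npas3-/- samples. Of these, 2 rose (Gfap and Aldoc) and 3 fell (Aqp4, Slc1a2 and Gja1) as counted, and all but Slc1a2 passed with the correction too. Aqp4, the astrocyte water channel, stood at 139 and 482 CPM in WT and 22.1 and 16.5 CPM in Npas3-/- samples, and S100b was under 1 CPM in every sample. Neuron markers summed to 291 and 138 CPM in WT and 224 and 225 CPM in Npas3-/- samples, a difference of over 2-fold between the WT samples in the direction opposite to most of the 10 genes. Ependymal markers summed to 366 and 264 CPM in WT and 504 and 636 CPM in Npas3-/- samples, higher in the latter as Saa3 and Ptx3 were. Gene by gene, 0 of the 5 tested ependymal markers rose and 1 fell as counted, and 0 passed with the correction. Oligodendrocyte lineage markers summed to 1640 and 1489 CPM in WT and 1790 and 2186 CPM in Npas3-/- samples. As counted, 1 of the 6 tested oligodendrocyte lineage markers rose and 1 fell. Among 6 tested neuron markers 0 rose and 1 fell, and among 8 tested fibroblast and meningeal markers 0 rose and 2 fell. All tested genes had 11.6% higher and 21.5% lower. The part of these marker sums and calls in the results was not tested.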

How the data were processed

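RNA sequencing counts of 2 WT and 2 Npas3-/- mouse cortical astrocyte samples were used. The authors deposited raw counts per gene. The submitters' processing notes name the build mm10, featureCounts, HISAT2 2.1.0 and Trimmomatic 0.3.8. Annotation release, strand setting and treatment of shared reads: not given in the sources used here, so counts of overlapping or near-identical genes are uncertain. Of 53379 gene identifiers, 53274 matched the GENCODE annotation of the same build, which gave symbols, coordinates, lengths and GC content. Groups came from the genotype labels.

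Genotypes were compared over the 4 samples with edgeR 4.0.16 (R 4.3.3; TMM, filterByExpr with a minimum count of 10, quasi-likelihood F test, no covariate), and p-values were Benjamini-Hochberg adjusted over 18838 genes. The SE is the log2 fold change over the square root of F. RPKM used TMM-scaled library sizes. The correction fitted, per library, natural splines with 6 degrees of freedom in GC content and log2 length, entered as an offset. Alternatives were DESeq2 1.42.0 and its size factors, limma-voom (limma 3.58.1), other filters and thresholds, a test against a fold of 1.5, near-identical copies summed, the replicate number as a block and leaving out each sample, with a crossed block added after the data were seen. The fits were also run on simulated counts with a common dispersion for all genes and no WT sample set apart. The outcome is not given, and no result here rests on it. Genes named are the 10, Npas3, fixed partners and copies, and per list genes from the 3 smallest p-values and the most abundant gene, not all of which are named. Aqp4, Aldoc, Slc1a2, Gja1, S100b, C1qa and Ptprc were named after their values were seen. The members and lists were chosen with earlier results of these data known. Promoter letters came from RefSeq (GRCm38.p6). One result for a cell type marker is not reported here.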

Additional observations from a re-analysis of the deposited data

How the results depend on the processing

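Each genotype had 2 samples, which limits what can be called; Saa3, the lowest of the 10 genes, had 219 counts or more in each. Saa3 and Ptx3 kept their direction under each of the 19 alternatives fitted per gene and passed in each, except at an adjusted p below 0.01 (2.73, adjusted p = 0.0157, and 1.48, adjusted p = 0.0167), without Npas3-/- replicate 2, without either Npas3-/- sample with the correction and, for Ptx3, without WT replicate 2 with the correction. DESeq2 also called C4b higher (1.06, adjusted p = 0.0274) and Cp lower (-1.57, adjusted p = 0.00768). Osmr lost its call with limma-voom (-1.64, adjusted p = 0.0597), with no filter (-1.75, adjusted p = 0.0758), with the replicate block (-1.64, adjusted p = 0.0942), against a fold of 1.5 (-1.75, adjusted p = 0.0886), at 0.01 (-1.75), with the GC and length correction (-0.24) and with that and the block (-0.16). The cause of these changes was not tested.

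Of the 10 genes, the number lower was 2 with DESeq2 and 0 with limma-voom, no filter, the replicate block, the GC and length correction with or without the block, a fold of 1.5 and 0.01, where 0 were higher as well. The pathway genes higher were 10 with no filter, 3 with the replicate block, 9 with the correction, 6 with both, 2 against a fold of 1.5 and 0 at 0.01, and those lower 13, 6, 4, 12 and 0 for the block, the correction, both, the fold and 0.01. Over all genes, those higher were 3524 with DESeq2, 1018 with no filter, 314 with the replicate block, 1076 with the correction, 772 with both, 404 against a fold of 1.5 and 0 at 0.01 (smallest adjusted p 0.0130, and 9024 genes at an unadjusted p below 0.05). Those lower were 2246 with the block, 580 with the correction, 367 with both, 2568 against the fold and 0 at 0.01. The difference of replicate 1 from 2 correlated at -0.33 between genotypes over 14036 genes. That value cannot show whether samples of the same number belong together, and the labels do not say. A crossed replicate block, added after the data were seen, gave 3336 genes higher and 4334 lower and 3 and 2 of the 10.

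Signs turned with the correction for Lcn2 (-0.40, and -0.19 with the replicate block), Serping1 (-0.16 and -0.12), Cp (0.71 and 0.74), Steap4 (0.38 and 0.55), A2m (0.10 and 0.11), C1s1 (0.39 and 0.52), Cd109 (0.24 and 0.27), Clu (-0.057 and -0.055), Il6st (1.05 and 1.05), Nfkbia (-0.19 and -0.16) and Steap2 (1.16 and 1.16). C3 turned with limma-voom (0.26), the replicate block (0.26) and the correction with the block (0.34).

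Leaving out each sample in turn, with and without the correction, gave 0 to 6 of the 10 genes higher and 0 to 3 lower, 0 to 15 pathway genes higher and 0 to 26 lower, and 0 to 2005 genes higher and 0 to 3827 lower over the table. Log2 fold changes then ran from 2.23 to 3.48 for Saa3, 1.17 to 1.67 for Ptx3, 0.55 to 1.68 for C4b, -0.94 to 1.28 for Lcn2, -0.20 to 1.39 for Serpina3n, -0.48 to 0.71 for Serping1, -0.81 to 1.46 for C3, -2.18 to 1.09 for Cp, -1.73 to 1.25 for Steap4 and -2.28 to 0.39 for Osmr. For other genes they ran from -0.73 to 0.30 (A2m), -0.97 to 1.15 (C1s1), -1.87 to 0.59 (Cd109), -0.14 to 0.70 (Clu), -0.58 to 1.10 (Il6st), -3.34 to 0.19 (Lifr), -0.41 to 0.61 (Nfkbia), -0.17 to 1.41 (Slc22a17), -2.17 to 1.37 (Steap2) and -0.093 to 0.86 (Tnfrsf1a).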
